A study of Mus musculus with 17 samples.

Results

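The Slc25 carriers are a family of membrane proteins, most of them in the inner mitochondrial membrane, and their transcripts were followed here in mouse blood after X-rays. Members were the genes whose symbol in the platform annotation consists of Slc25a and a number, which gave 44 of the 18193 genes with a probe set of 1 symbol. A probe set is the group of short array probes that reads one transcript, and where a gene had several, the one brightest on average across the 17 arrays stood for it. Of the 44 members, 33 lay above their array's 50th percentile in at least 4 arrays and were tested among 12696 such genes.

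The study asked how gene expression in blood depends on radiation dose. Female C57BL/6JJcl mice, an inbred strain, aged 8 weeks, received a single total-body exposure to X-rays or none, and whole blood was taken under isoflurane 24 h later. There were 5 control mice at 0 Gy and 4 mice each at 0.5, 1.0 and 3.0 Gy, with 1 Affymetrix array per mouse, and per the labels the groups differed in dose alone. All levels below are the authors' deposited log2 RMA values (an array summary in which 1 unit is a doubling), and changes are differences of group means with limma's standard error (SE) and an adjusted p over all genes tested. A gene was called higher or lower where that p was under 0.05.

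The inner mitochondrial membrane is nearly closed to charged molecules, and Slc25 proteins let particular metabolites, nucleotides, cofactors and ions cross it. They share a fold built of repeated pairs of membrane helices, and several exchange one substrate for another. In blood-forming tissue the family is best known for red cell precursors, in which iron, glycine and glutathione carriers serve the making of heme. Mature red cells of mammals have no mitochondria, while their young forms (reticulocytes), white cells and platelets do.

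Promoter sequences are shown for 4 example members: Slc25a24, higher at every dose, and Slc25a3, Slc25a4 and Slc25a28, among the 13 lower at 3.0 Gy. They come from RefSeq (mouse build GRCm38.p6), run 5′ to 3′ on the gene's own strand and span 250 bases before to 50 bases after the transcription start. Capitals mark matches, on either strand, to CCGGAAG (the core of sites bound by ETS factors) or CCAAT (the box bound by NF-Y).
Slc25a24, chr3:109122899-109123198, plus strand: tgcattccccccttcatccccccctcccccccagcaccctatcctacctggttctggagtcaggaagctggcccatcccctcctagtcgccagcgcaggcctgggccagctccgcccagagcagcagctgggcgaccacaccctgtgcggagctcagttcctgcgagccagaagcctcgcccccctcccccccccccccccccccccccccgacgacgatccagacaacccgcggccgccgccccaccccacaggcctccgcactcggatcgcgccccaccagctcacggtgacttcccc
Slc25a3, chr10:91123918-91124217, minus strand: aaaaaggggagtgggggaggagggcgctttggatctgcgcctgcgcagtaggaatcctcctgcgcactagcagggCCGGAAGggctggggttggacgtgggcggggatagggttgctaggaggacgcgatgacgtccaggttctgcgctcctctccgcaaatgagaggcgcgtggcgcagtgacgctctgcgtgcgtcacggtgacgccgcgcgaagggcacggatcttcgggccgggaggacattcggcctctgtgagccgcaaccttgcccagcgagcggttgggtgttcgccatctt
Slc25a4, chr8:46211013-46211312, minus strand: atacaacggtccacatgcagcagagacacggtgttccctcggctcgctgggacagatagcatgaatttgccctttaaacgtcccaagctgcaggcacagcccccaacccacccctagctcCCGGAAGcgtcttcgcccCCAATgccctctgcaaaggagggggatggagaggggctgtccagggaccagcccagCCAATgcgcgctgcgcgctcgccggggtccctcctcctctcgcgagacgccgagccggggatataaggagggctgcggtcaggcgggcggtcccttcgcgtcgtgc
Slc25a28, chr19:43674832-43675131, minus strand: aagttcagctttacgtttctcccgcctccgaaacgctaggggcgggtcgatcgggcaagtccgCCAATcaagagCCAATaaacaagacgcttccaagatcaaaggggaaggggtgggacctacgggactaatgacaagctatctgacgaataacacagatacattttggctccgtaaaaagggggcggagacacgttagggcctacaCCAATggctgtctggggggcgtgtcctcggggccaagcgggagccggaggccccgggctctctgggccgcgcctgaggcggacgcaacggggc
No capitals stand in the Slc25a24 window. The Slc25a3 window has an ETS core at positions -175 to -169, and the Slc25a4 window has one at -130 to -124 with CCAAT at -112 to -108 and -56 to -52. In the Slc25a28 window CCAAT stands at -187 to -183, -176 to -172 and -43 to -39. Matches of different motifs could overlap and were counted separately.

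Of the 44 members, 34 had a promoter entry, with none for Slc25a51 and Slc25a37, which fell most at 3.0 Gy. CCAAT was present for 18 of the 34 (52.9%, against 41.1% of 27025 genes) and CCGGAAG for 7 (20.6%, against 9.93%). AGATAA or TGATAA, the core bound by GATA factors, was present for 5 (14.7%, against 21.0%), and GCATGCGC, part of the NRF1 site, for 2 (5.88%, against 3.05%). Of the 13 members lower at 3.0 Gy, 10 had an entry, and CCAAT was in 7 of them, CCGGAAG in 2, the GATA core in 2 and GCATGCGC in 0. Of the 17 other tested members with an entry the counts were 9, 4, 2 and 0. These matches describe letters in a window and do not show binding.

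Facts of the whole series bear on what follows. Array medians lay between 3.47 and 3.57. Array 75th percentiles lay between 4.77 and 4.83 at 3.0 Gy and between 4.86 and 4.95 in all other arrays. In bulk blood, fewer cells of a type and less RNA per cell cannot be told apart. Markers of several blood cell types moved with dose. Platelet markers were called higher in 11 of 11 genes at each dose, with a mean level per array of 8.83 to 9.37 in controls, 10.21 to 10.47 at 0.5 Gy, 10.57 to 10.91 at 1.0 Gy and 10.45 to 11.25 at 3.0 Gy. B cell markers at 3.0 Gy were called lower in 8 of 9 genes and averaged 4.70 to 5.91, against 7.17 to 7.87 in controls, and T cell markers were called lower in 8 of 10 genes and averaged 5.44 to 5.78, against 6.76 to 7.52 in controls. Red cell markers were called lower in 3, 5 and 6 of 11 genes at 0.5, 1.0 and 3.0 Gy, with 2 called higher at 3.0 Gy, and neutrophil markers were called higher in 5 of 7 genes at 3.0 Gy. NK cell markers were called lower in 2 of 6 genes (33.3%) and monocyte markers in 3 of 6 at that dose. For comparison, 29.2% of all genes tested were called lower and 20.0% higher at 3.0 Gy, and the NK share lay close to the former. At 1.0 Gy 8.49% of all genes were lower and 8.80% higher. At 0.5 Gy 635 of the 12696 genes were lower and 665 higher. Control probe sets for 18S ribosomal RNA read 9.82 to 11.18 in controls, 11.76 to 13.43 at 0.5 Gy, 12.89 to 13.52 at 1.0 Gy and 10.50 to 10.84 at 3.0 Gy. The part of these cell markers in the carriers' changes was not tested, and the 18S level was entered as a covariate in an added fit. At 0.5 and 1.0 Gy all 18S levels lay above all controls, so that fit can hardly separate dose from 18S level there. The 3.0 Gy levels lay within the control range, so the fit could change little against control at that dose.

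**Figure D1:**
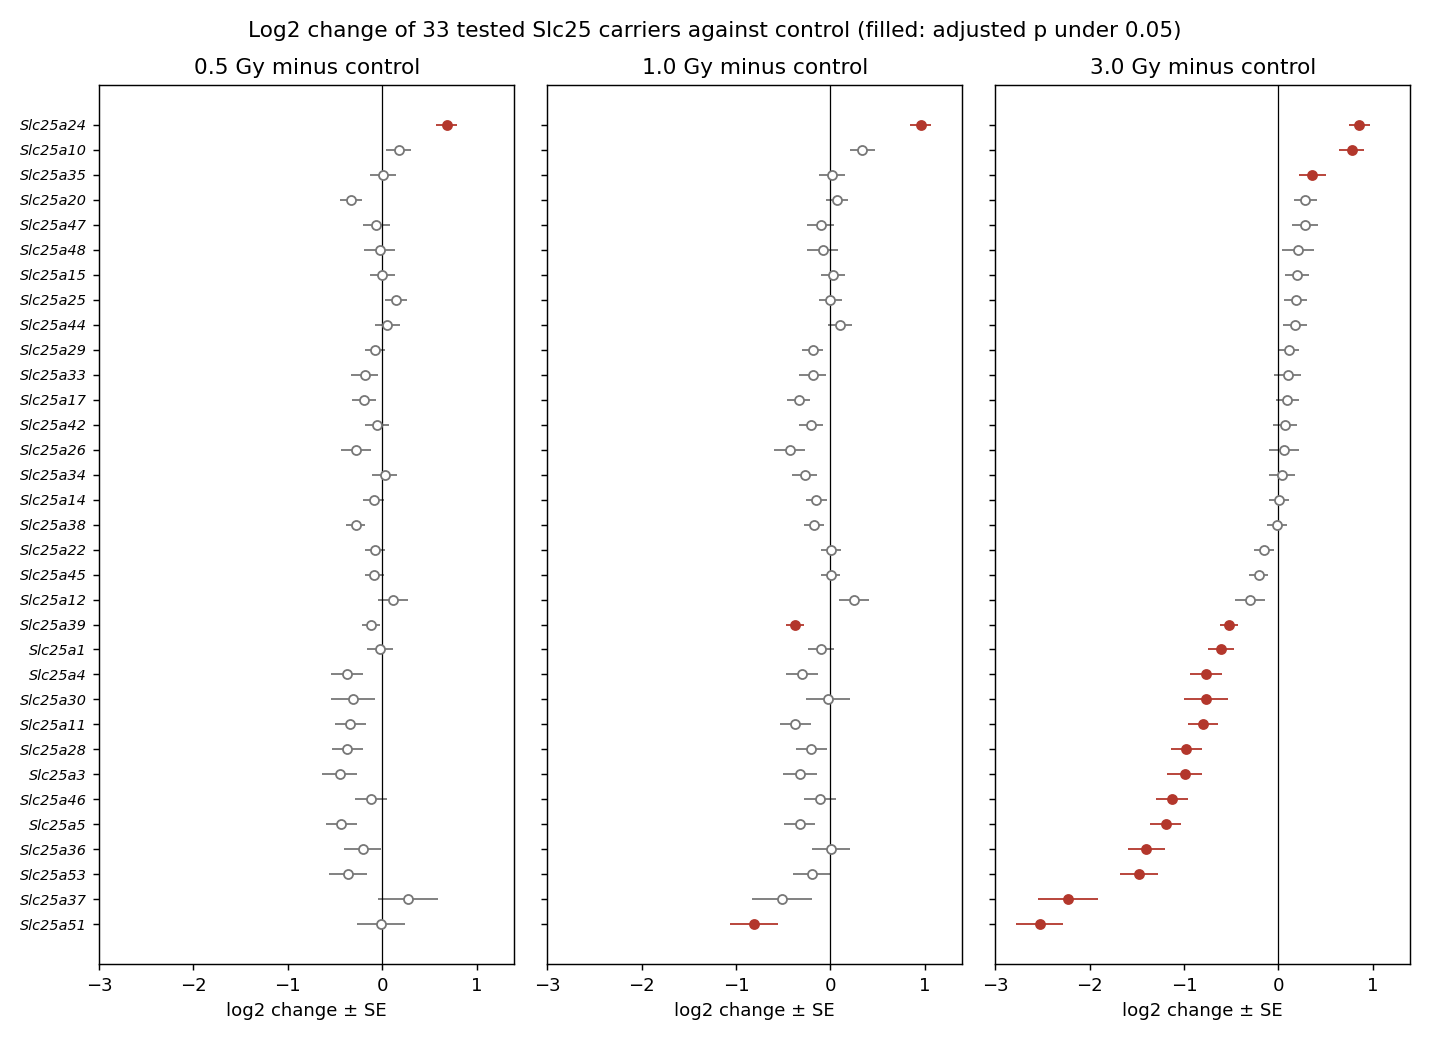
Log2 change against control of the 33 tested Slc25 carriers at 0.5, 1.0 and 3.0 Gy (one panel each), with bars of 1 SE and filled points where the adjusted p was under 0.05. Carriers are ordered by their change at 3.0 Gy: the 13 called lower stand at one end, from Slc25a51 at -2.53, and Slc25a24 at 0.86 stands at the other and is filled in all 3 panels.

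Of the 3 comparisons with control, that of 3.0 Gy held the most calls. Of the 33 tested carriers, 13 fell and 3 rose, and 17 did not pass the test. The NAD+ carrier Slc25a51 and the mitochondrial iron importer Slc25a37 fell by more than 2 log2 units, the ADP/ATP carriers Slc25a4 and Slc25a5 and the phosphate carrier Slc25a3 fell with changes of -1.20 to -0.76, and the calcium-regulated Slc25a24 and the dicarboxylate carrier Slc25a10 rose by 0.86 and 0.78. That is 39.4% of the carriers lower and 9.09% higher, against 29.2% lower and 20.0% higher over all genes tested. Among the 7750 genes above their array's 75th percentile in at least 4 arrays, 3026 were called lower and 1634 higher. The share called lower was thus larger among brighter genes. The median change was -0.01 for the carriers (range -2.53 to 0.86) and 0.04 for all genes. Every 3.0 Gy array lay below every control array for 12 carriers and above every control array for 2, while 22.9% of all genes were below and 14.2% above in this way. The 12 include Slc25a45 (-0.21, adjusted p = 0.0950 by limma), which was not called. Slc25a4 and Slc25a30, called lower, overlapped the controls. After a repeated quantile normalization, which moved the median change of all genes at 3.0 Gy to 0.12, 7 carriers were higher and 13 lower. In that setting 52.6% of all calls were in the higher direction, against 40.6% as deposited.

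In the list of iron, glycine and glutathione carriers 3 of 4 tested members fell at 3.0 Gy and 0 rose. Over all genes tested 29.2% fell and 20.0% rose. The median change in the list was -0.75, with changes from -2.23 to -0.01. Slc25a37, called mitoferrin-1, imports iron into the mitochondria of red cell precursors. Its level was 8.71, 10.13, 8.30 and 9.47 in the 3.0 Gy mice, against 12.05, 12.03, 10.70, 11.01 and 11.12 in controls. All 3.0 Gy values lay below all controls, and the spread within each group was wide. The change was -2.23 ± 0.32 (SE, adjusted p = 1.22e-05), a 4.70-fold lower level. At the lower doses the control range was not left by the group means: Slc25a37 averaged 11.38 ± 0.62 in controls, 11.65 ± 0.29 at 0.5 Gy and 10.87 ± 0.31 at 1.0 Gy (SD, n = 5, 4 and 4), and neither dose was called (adjusted p = 0.712 and 0.319).

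Slc25a28, called mitoferrin-2, is an iron importer expressed across tissues. In 3.0 Gy mice it stood at 5.40, 5.36, 4.93 and 5.05, against 6.42, 6.21, 5.98, 6.45 and 5.73 in controls, with no overlap. Its change was -0.97 ± 0.16 (SE, adjusted p = 6.22e-05), so both mitoferrins were lower. Its promoter, shown above, holds 3 CCAAT boxes, and Slc25a37 had no entry. Slc25a39 imports the antioxidant glutathione into mitochondria. It read 13.15, 13.45, 13.13 and 13.40 at 3.0 Gy, against 13.94, 13.84, 13.66, 13.71 and 13.85 in controls. These groups did not overlap either, and the change was -0.52 ± 0.10 (SE, adjusted p = 0.000176). The probe set is of the _x_at type, which can bind related transcripts, and its values lie near the arrays' highest values of 14.57 to 14.61. All 5 probe sets of Slc25a39 were lower at 3.0 Gy, at -0.81 to -0.32, and the brighter of its 2 probe sets of neither the _x_at nor the _s_at type gave the -0.81 (adjusted p = 0.000154). Slc25a38, which brings in glycine for the first step of heme synthesis, was 6.21 ± 0.20 at 3.0 Gy and 6.23 ± 0.09 in controls (SD, n = 4 and 5), a change of -0.01 ± 0.10 (SE, adjusted p = 0.932). The fifth listed carrier of this role, the glutathione carrier Slc25a40, was too dim to test.

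Genes of heme synthesis and mitochondrial iron handling, the pathway these carriers feed, were called lower more often than higher. Of 21 tested, 12 were called lower and 1 higher at 3.0 Gy (57.1% and 4.76%, against 29.2% and 20.0% of all genes), with a median change of -0.49. The smallest p-values belonged to the iron-sulphur cluster genes Glrx5 (-1.96 ± 0.12 SE, adjusted p = 4.77e-09), Iscu (-1.22 ± 0.13), Isca1 (-1.14) and Hscb (-1.14 ± 0.15). Among red cell markers, the membrane anion exchanger Slc4a1 changed by -2.51 and Trim10 by -2.20. The 2 markers called higher, named after their values were seen, were Ank1 (0.58 ± 0.14 SE, adjusted p = 0.00270) and Klf1 (0.33 ± 0.12 SE, adjusted p = 0.0268). The median change of the 11 markers was -0.29, and their mean level was 6.52 to 6.81 at 3.0 Gy, against 7.10 to 7.81 in controls. At 1.0 Gy the red cell marker mean was 6.31 to 6.93, and Slc25a37 changed by -0.51 without a call. How far the red cell markers bear on the change of Slc25a37 was not tested.

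Slc25a51 was the carrier with the lowest p at 3.0 Gy. It is known from human cells to bring NAD+ into mitochondria. Levels were 7.44, 8.30, 7.27 and 7.98 at 3.0 Gy, against 10.89, 10.78, 9.64, 9.96 and 10.10 in controls. The groups lay more than 1 unit apart. The change was -2.53 ± 0.25 (SE, adjusted p = 2.02e-07), a 5.76-fold lower level. Within the 3.0 Gy mice and within the controls, the arrays stood in the same order for Slc25a51 as for Slc25a37, with replicate 3 lowest in both groups for both genes. Slc25a51 has 3 probe sets, all above the filter in all 17 arrays. They gave -2.53, -2.46 and -0.72 at 3.0 Gy. Slc25a36, a carrier of pyrimidine nucleotides, stood at 5.36, 5.45, 4.69 and 4.98 at 3.0 Gy, against 7.03, 6.26, 6.43, 6.68 and 6.20 in controls. Its ranges did not overlap, and the change was -1.40 ± 0.20 (SE, adjusted p = 1.16e-05). Its 2 other probe sets were dim, with changes of 0.00 and 0.07, and the mean over all its probe sets gave -0.44 (adjusted p = 0.00196). Of the other tested nucleotide and cofactor carriers, Slc25a33 (pyrimidine nucleotides) differed from control by 0.10 and Slc25a26 (S-adenosylmethionine) by 0.06, neither called. In this list 2 of 4 fell, against 29.2% of all genes.

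**Figure D2:**
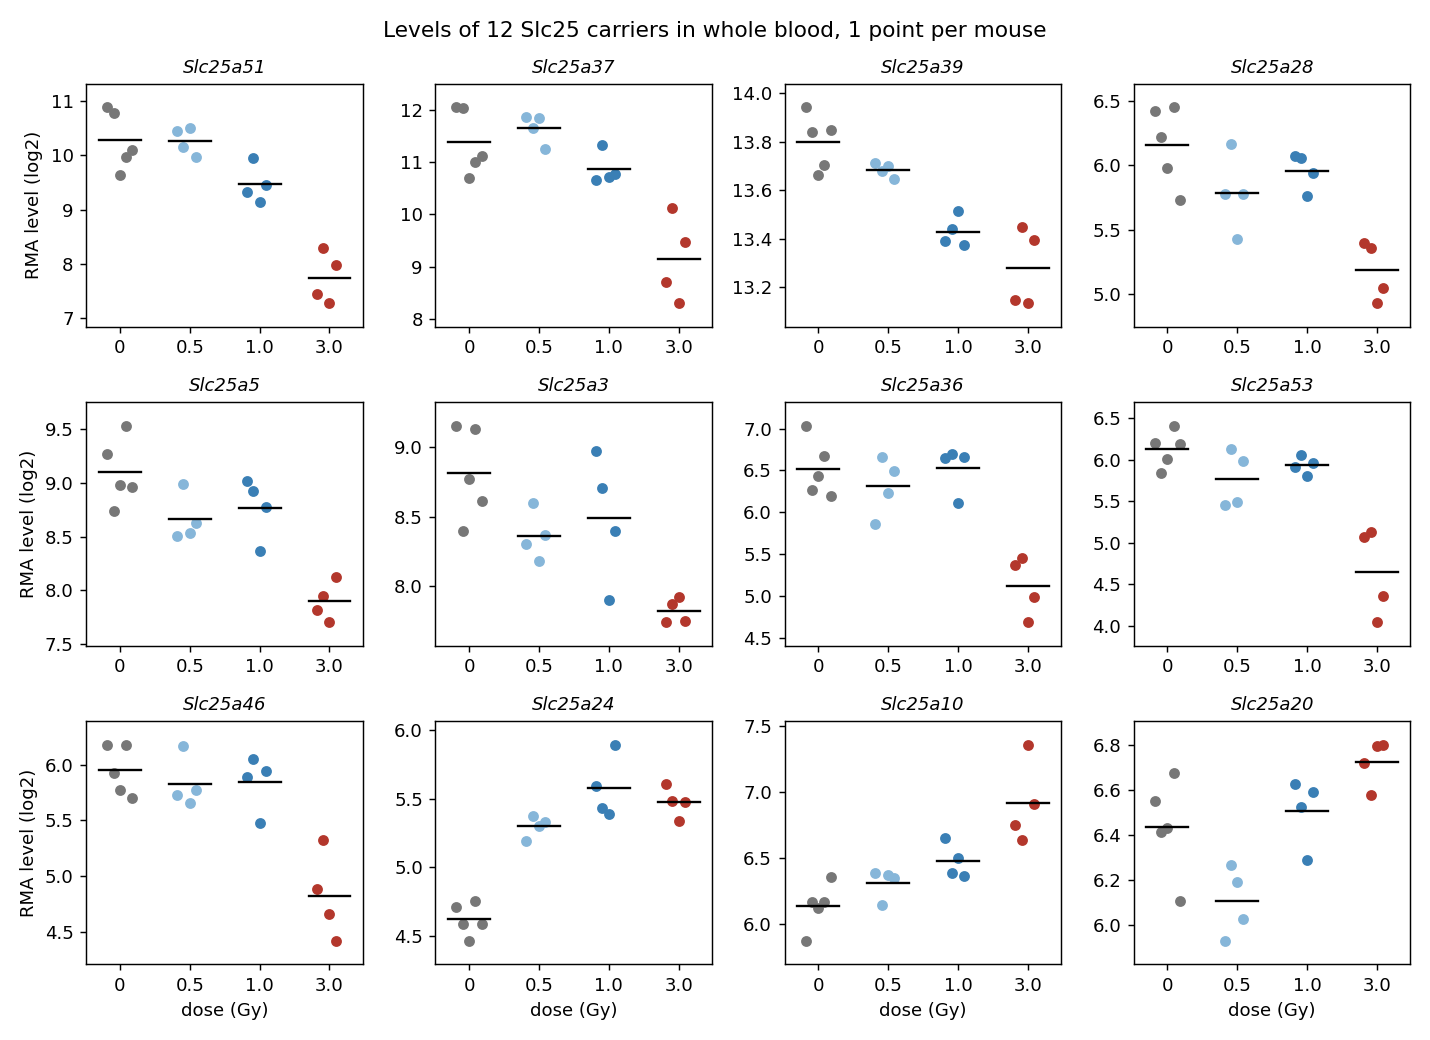
RMA level (log2) of 12 Slc25 carriers by dose in Gy, with 1 point per mouse and a line at the group mean, each panel on its own scale. Slc25a51 and Slc25a37 drop at 3.0 Gy below all control points, Slc25a24 is above all control points at each of the 3 doses, and Slc25a20 is lowest at 0.5 Gy.

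Carriers of adenine nucleotides and phosphate moved both ways at 3.0 Gy: of 7 tested, 3 fell and 1 rose, with a median change of 0.07. That is 42.9% and 14.3%, against 29.2% and 20.0% of all genes. Slc25a5, the ADP/ATP carrier found in most tissues, read 7.82, 7.95, 7.71 and 8.12 at 3.0 Gy, against 9.27, 8.74, 8.98, 9.53 and 8.96 in controls. No 3.0 Gy array reached the lowest control. The change was -1.20 ± 0.16 (SE, adjusted p = 6.51e-06), and all 8 probe sets of the gene were lower, at -1.59 to -0.50. The probe set used is of the _x_at type. Slc25a4, the ADP/ATP carrier typical of heart and muscle, was 6.43, 6.28, 6.78 and 6.40 at 3.0 Gy, against 7.42, 6.64, 7.18, 7.66 and 7.28 in controls. Here the ranges overlapped in 1 array of each group, and the change was -0.76 ± 0.17 (SE, adjusted p = 0.00104). Slc25a3 brings phosphate into the matrix. It read 7.74, 7.87, 7.92 and 7.75 at 3.0 Gy, against 9.15, 8.40, 8.77, 9.13 and 8.62 in controls. All 3.0 Gy mice lay below all controls. The change was -0.99 ± 0.19 (SE, adjusted p = 0.000194), and the second probe set of Slc25a3, at 3.52 in 3.0 Gy mice and 3.53 in controls, differed by -0.01. The promoters of Slc25a3 and Slc25a4, printed above, each hold an ETS core, the only 2 to do so among the 10 lower members with an entry.

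Slc25a24 went the other way, alone among the 33 in being called against control at all 3 doses. It exchanges ATP-Mg for phosphate under the control of calcium. Levels were 4.71, 4.59, 4.46, 4.75 and 4.58 in controls, 5.19, 5.38, 5.30 and 5.33 at 0.5 Gy, 5.59, 5.43, 5.38 and 5.89 at 1.0 Gy and 5.61, 5.48, 5.34 and 5.48 at 3.0 Gy. Every irradiated mouse lay above every control mouse. The changes were 0.68 ± 0.11 at 0.5 Gy (SE, adjusted p = 0.000383), 0.96 ± 0.11 at 1.0 Gy (adjusted p = 3.40e-06) and 0.86 ± 0.11 at 3.0 Gy (adjusted p = 3.36e-06). Differences between doses were not called, the largest being 0.28 ± 0.12 between 1.0 and 0.5 Gy (SE, adjusted p = 0.759). A second, dim probe set of Slc25a24 was higher by 0.41, 0.28 and 0.63 at 0.5, 1.0 and 3.0 Gy. With the 18S level as a covariate, an alternative chosen after the data were seen, the change stayed at 0.57 and 0.81 at 0.5 and 1.0 Gy without a call (adjusted p = 0.217 and 0.132), and at 3.0 Gy it was 0.85 (adjusted p = 6.54e-06). Platelet markers, given above, were also higher in all 12 irradiated mice than in all controls. The close relative Slc25a25, another calcium-dependent carrier, differed from control by 0.15 at 0.5 Gy and 0.18 at 3.0 Gy, without a call at any dose. The coenzyme A carrier Slc25a42 and the peroxisomal Slc25a17, of the same list, were not called at any dose against control.

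In the list of di- and tricarboxylate and keto acid carriers, 2 of 5 tested members were called higher at 3.0 Gy and 2 lower. Over all genes tested 20.0% were higher and 29.2% lower. Slc25a10, the dicarboxylate carrier for malate and succinate, read 6.75, 6.64, 7.36 and 6.91 at 3.0 Gy, against 5.87, 6.16, 6.12, 6.17 and 6.36 in controls. All 3.0 Gy arrays lay above all controls, and the change was 0.78 ± 0.13 (SE, adjusted p = 8.72e-05). Its second probe set was higher by 0.88. At 1.0 Gy it also lay above the highest control in all 4 mice, with a difference of 0.34 ± 0.13 that did not pass (SE, adjusted p = 0.0952). Slc25a11 exchanges 2-oxoglutarate for malate as part of the malate-aspartate shuttle. It averaged 6.15 ± 0.30 at 3.0 Gy and 6.95 ± 0.31 in controls (SD, n = 4 and 5), a change of -0.80 ± 0.16 (SE, adjusted p = 0.000481). Slc25a1, which exports citrate for fatty acid synthesis, averaged 4.65 ± 0.16 at 3.0 Gy and 5.26 ± 0.15 in controls, a change of -0.61 ± 0.14 (SE, adjusted p = 0.00115). Neither gene's groups overlapped. Slc25a35, for which no substrate is stated here, was the other higher member, by 0.36 ± 0.14 (SE, adjusted p = 0.0384), with overlapping groups. That call was lost without 3.0 Gy replicate 3 (adjusted p = 0.143) or 4 (0.122), without control replicate 2 (0.0790) or 3 (0.0971), and in a fit of the 3.0 Gy and control arrays alone (0.0710).

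Amino acid and carnitine carriers held no call against control at any dose. At 3.0 Gy 0 of 9 were called by limma, against 49.1% of all genes in either direction. The smallest p was that of Slc25a20, the carnitine-acylcarnitine carrier of fatty acid oxidation (0.29 ± 0.12 SE, adjusted p = 0.0532). Slc25a20 had the values 6.55, 6.41, 6.43, 6.68 and 6.11 in controls, 5.93, 6.27, 6.19 and 6.03 at 0.5 Gy, 6.63, 6.53, 6.29 and 6.59 at 1.0 Gy and 6.72, 6.58, 6.80 and 6.80 at 3.0 Gy. The 0.5 Gy mice were the low group and the 3.0 Gy mice the high one, without overlap between these doses. The difference between 3.0 and 0.5 Gy was 0.62 ± 0.13 (SE, adjusted p = 0.00100), although neither dose was called against control. With the 18S covariate it was 0.55 (adjusted p = 0.270).

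Among carriers outside these roles, Slc25a46, a protein of the outer mitochondrial membrane that acts in membrane dynamics, read 4.88, 5.32, 4.66 and 4.42 at 3.0 Gy, against 6.17, 5.92, 5.77, 6.18 and 5.70 in controls. The groups did not overlap, the change was -1.13 ± 0.17 (SE, adjusted p = 2.22e-05), and its second probe set gave -0.94. Slc25a53 read 5.07, 5.13, 4.05 and 4.36 at 3.0 Gy, against 6.20, 5.84, 6.00, 6.40 and 6.18 in controls. These groups did not overlap either. That is a change of -1.48 ± 0.20 (SE, adjusted p = 6.07e-06), and its other, dim probe set gave -0.01. Of the 2 tested carriers related to uncoupling proteins, Slc25a30 changed by -0.77 ± 0.23 (SE, adjusted p = 0.0109) with overlapping groups, and Slc25a14 differed by 0.01. The Slc25a30 call was lost without 3.0 Gy replicate 3 (adjusted p = 0.0512) and with the mean of its 5 probe sets, which was -0.18 (adjusted p = 0.0868). Related carriers under other symbols gave 1 call in 3 tested genes, Mtch2 of the outer membrane, at -0.55 (adjusted p = 0.000943). That is 33.3% lower, against 29.2% of all genes.

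**Figure D3:**
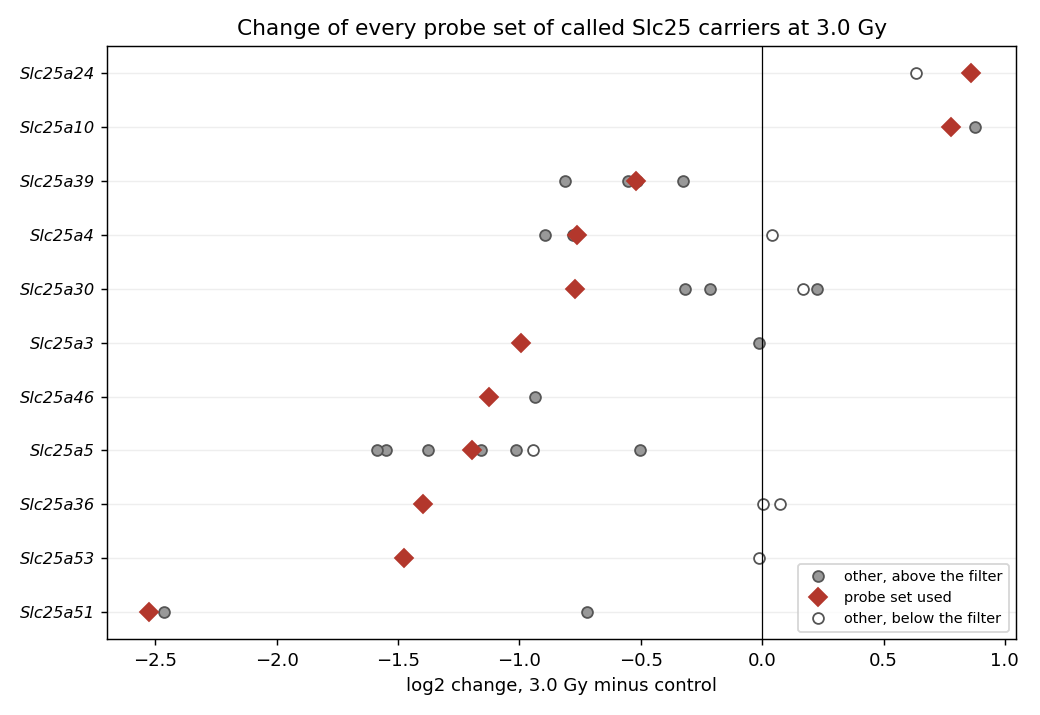
Log2 change at 3.0 Gy minus control for every probe set of the called Slc25 carriers with more than 1, with the probe set used as a red diamond, others above the filter in grey and others below it as open circles. All 8 probe sets of Slc25a5, all 5 of Slc25a39 and all 3 of Slc25a51 lie below 0, while the dim second sets of Slc25a36 and Slc25a53 and the second set of Slc25a3 lie near 0.

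General genes of mitochondrial content were lower at 3.0 Gy in 13 of 18 tested cases and higher in 2 (72.2% and 11.1%, against 29.2% and 20.0% of all genes), with a median change of -0.71. At 0.5 Gy they were lower in 5 and higher in 1, where 635 and 665 of the 12696 genes tested were, and at 1.0 Gy lower in 7 and higher in 3 (38.9% and 16.7%, against 8.49% and 8.80% of all genes). The outer membrane import receptor Tomm20 changed by -2.11, the matrix chaperonin Hspe1 by -1.57 and the mitochondrial DNA factor Tfam by -1.79, and the outer membrane channel Vdac1 by 1.11.

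**Figure D4:**
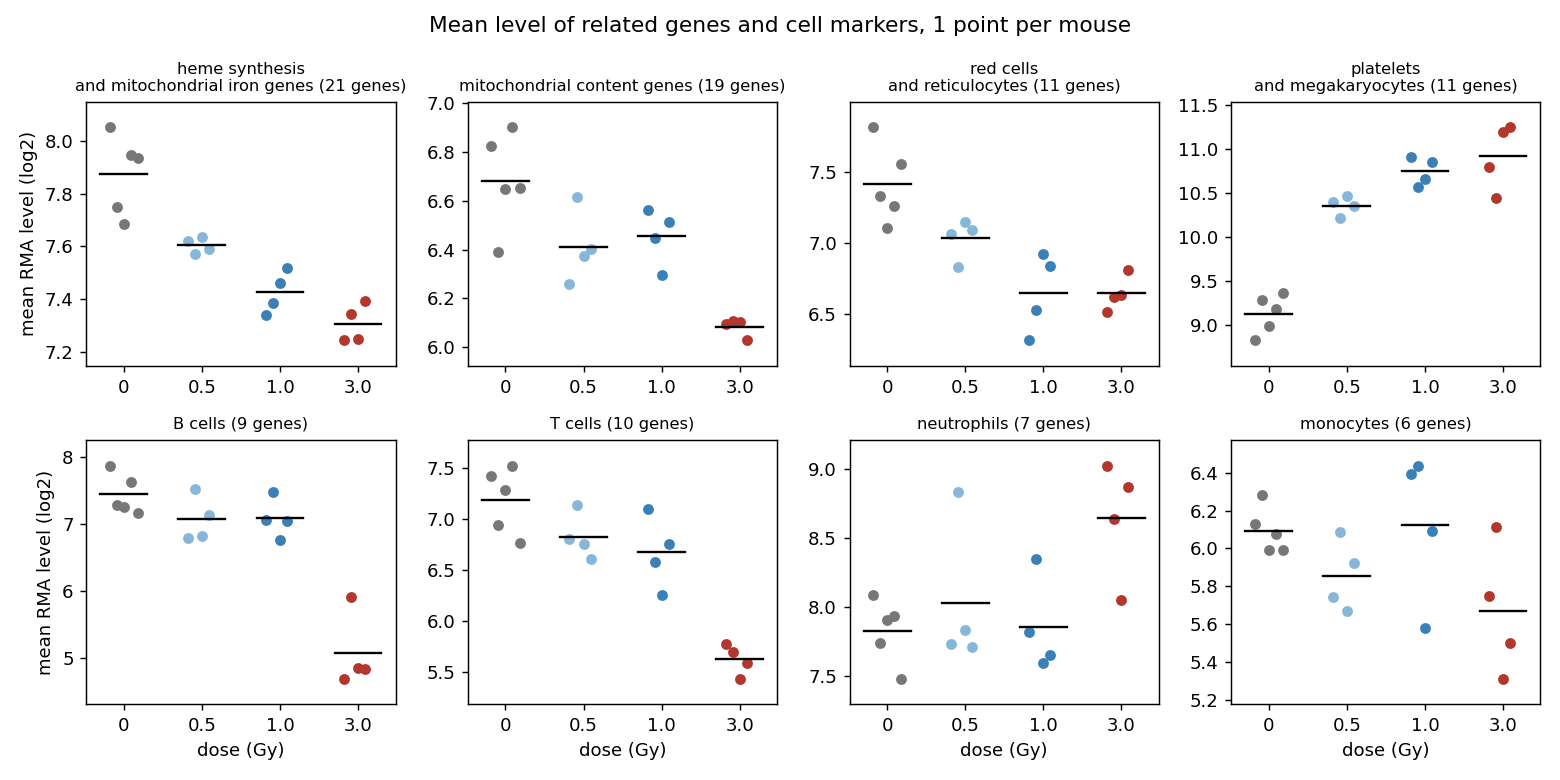
Mean RMA level (log2) per mouse of genes of heme synthesis and mitochondrial iron, of mitochondrial content and of markers of 6 blood cell types, by dose in Gy, with a line at the group mean. Platelet markers are above all controls at each dose. The means of B cell, T cell, monocyte, mitochondrial content, and heme and mitochondrial iron genes are lowest at 3.0 Gy. The red cell marker mean is 6.64 at 3.0 Gy and 6.65 at 1.0 Gy.

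At 1.0 Gy few carriers differed from control. Slc25a24 rose, as given above, and Slc25a39 and Slc25a51 fell, so 1 of 33 was higher (3.03%) and 2 were lower (6.06%), against 8.80% and 8.49% of all genes. The median change was -0.15, with a range of -0.81 to 0.96, and -0.04 over all genes. Slc25a39 read 13.39, 13.44, 13.51 and 13.38 at 1.0 Gy. All 4 mice lay below the lowest control at 13.66, and the change was -0.37 ± 0.10 (SE, adjusted p = 0.0101). The other 4 probe sets of this gene gave -1.01 to -0.50, and the brighter set of neither the _x_at nor the _s_at type gave the -1.01 (adjusted p = 5.44e-05). Slc25a51 read 9.32, 9.95, 9.14 and 9.46 at 1.0 Gy, against 9.64 to 10.89 in controls, with 1 mouse inside the control range and a change of -0.81 ± 0.25 (SE, adjusted p = 0.0308). Its 2 other probe sets gave -1.70 and -0.50. The Slc25a51 call was lost without 1.0 Gy replicate 1, 3 or 4 (adjusted p = 0.0844, 0.0852 and 0.0679) and without control replicate 1 or 2 (0.0792 and 0.0733). With the 18S covariate the change of Slc25a51 at 1.0 Gy was 0.09 (adjusted p = 0.970) and that of Slc25a39 was -0.34 (adjusted p = 0.598), neither called. Their changes at 3.0 Gy were then -2.48 and -0.52. As given above, that fit could change little at 3.0 Gy and can hardly separate dose from 18S level at 1.0 Gy. Heme and mitochondrial iron genes at this dose were called lower in 7 of 21 cases (33.3%, against 8.49% of all genes), among them Glrx5 at -1.65 and Hscb at -1.70.

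At 0.5 Gy the rise of Slc25a24 was the 1 call among the 33 carriers (3.03% higher, against 5.24% of all genes). By limma 0 were called lower, against 635 of the 12696 genes tested. An unadjusted p under 0.05 was found for 7 carriers (21.2%), against 21.9% of all genes. In either direction 10.2% of all genes were called at this dose. The median change was -0.08 (range -0.45 to 0.68), with 24 carriers below 0 and 9 above, and the median of all genes was -0.02. The most negative change was that of the phosphate carrier Slc25a3, -0.45 ± 0.19 (SE, adjusted p = 0.145). Slc25a5 stood at -0.43 ± 0.16 (SE, adjusted p = 0.108). The 0.5 Gy mice overlapped the controls for both genes. One of the other probe sets of Slc25a51 had a change of -0.97 at this dose, where the probe set used had -0.01. Heme and mitochondrial iron genes were called lower in 5 of 21 cases at 0.5 Gy (23.8%, against the 635 of 12696 genes above), with Hscb at -0.93 and Glrx5 at -0.73.

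The doses were then set against each other. Between 1.0 and 0.5 Gy limma called 0 carriers in either direction. An unadjusted p under 0.05 was found for 6 (18.2%), against 5.79% of all genes, and the median difference was 0.01. Over all genes 0% were called higher and 0.0158% lower in that comparison. Between 3.0 and 0.5 Gy 2 carriers were higher (Slc25a10 and Slc25a20) and 11 lower, which is 6.06% and 33.3%, against 12.9% and 20.9% of all genes. The median difference was 0.02, and 0.05 over all genes. Slc25a37 differed by -2.50 ± 0.34 (SE, adjusted p = 3.17e-05) and Slc25a51 by -2.52 ± 0.26 (SE, adjusted p = 3.69e-06).

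Between 3.0 and 1.0 Gy 5 carriers were higher and 12 lower, which is 15.2% and 36.4%, against 15.9% and 22.7% of all genes, with medians of -0.10 for the carriers and 0.06 for all genes. Slc25a37 and Slc25a51 each differed by -1.72 (SE 0.34 and 0.26), with adjusted p = 0.000823 and 0.000103, and every 3.0 Gy mouse lay below every 1.0 Gy mouse for both. Slc25a36 differed by -1.41 ± 0.21 (SE, adjusted p = 8.26e-05), with 6.65, 6.69, 6.11 and 6.66 at 1.0 Gy. Slc25a12, the aspartate-glutamate carrier of the malate-aspartate shuttle, differed between 3.0 and 1.0 Gy by -0.55 ± 0.17 (SE, adjusted p = 0.0157) while neither dose was called against control. Its groups overlapped, and the call was lost without 1.0 Gy replicate 4 (adjusted p = 0.0619) and with the mean of its probe sets (-0.08, adjusted p = 0.522). The 5 higher carriers were Slc25a10 and, with no call against control, Slc25a17 (0.43), Slc25a26 (0.49), Slc25a29 (0.30) and Slc25a47 (0.38). Their count rested on single mice: it was 1 without 1.0 Gy replicate 1, 2 or 4, 3 without 0.5 Gy replicate 4 or any one 3.0 Gy mouse, and 8 without 1.0 Gy replicate 3. With the 18S covariate 0 carriers were called between 3.0 and 1.0 Gy, and between 3.0 and 0.5 Gy 2 were lower and 0 higher. In that fit 0 of all 12696 genes were called between 3.0 and 1.0 Gy. Between 3.0 and 0.5 Gy 87 of them were lower and 8 higher.

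Across the 4 groups together, an F test called a change at any dose in 17 of 33 carriers (51.5%), against 48.2% of all genes tested. Against control, 16 carriers were called at 1 or more doses, all of them at 3.0 Gy, where that is 48.5%, against 49.1% of all genes. Counts over all genes were not made for calls at 1 or more doses or for calls in no comparison. Of the 33 carriers, 11 were called in none of the 6 comparisons. These 11 were Slc25a14, Slc25a15, Slc25a22, Slc25a25, Slc25a33, Slc25a34, Slc25a38, Slc25a42, Slc25a44, Slc25a45 and Slc25a48, with changes at 3.0 Gy of -0.21 to 0.21. They include the carrier of glutamate (Slc25a22) and that of branched-chain amino acids (Slc25a44). The 11 carriers too dim to test were Slc25a2, Slc25a13, Slc25a16, Slc25a18, Slc25a23, Slc25a27, Slc25a31, Slc25a32, Slc25a40, Slc25a41 and Slc25a54, with mean levels over all arrays of 1.58 to 3.39.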

How the data were processed

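RNA of whole blood from 17 mice was measured on 1 array each. For 45101 probe sets the table deposited by the authors holds log2 values, made with RMA and R 3.3.2 per the submitters' processing notes. The RMA software and probe definition were not given in the sources used here. Since the method is meant to equalise intensity distributions, a shift shared by most genes is partly removed. Changes of dim probe sets may be understated as well, which was not tested. The deposited arrays were not fully equal, as their 75th percentiles were lower at 3.0 Gy than in all other groups.

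Symbols came from a platform annotation table, in which 34945 probe sets had 1 symbol, 932 several and 9160 none, with 64 control probe sets. Those with several symbols were left unnamed, 1 of them including a member. Of 47 Slc25a symbols in RefSeq, 3 had no probe set of 1 symbol and were not analysed here.

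Each gene was represented by its probe set with the highest mean, and the 12696 genes above the array's 50th percentile in at least 4 arrays were tested. The deposited log2 values were fitted with limma 3.58.1 in R 4.3.3 (lmFit and eBayes, 4 group means over all 17 arrays). The 6 two-sided contrasts and an F test over the 3 contrasts with control had p-values adjusted over all genes tested (Benjamini-Hochberg), with 0.05 as the threshold. The script was tested on simulated data. Members called against control were given in full where their p was among the 6 smallest of a contrast or where they carry a role group, and genes of other lists were named by at most the 4 smallest p per list and dose. The members and the gene lists were chosen with earlier results of these data known.

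The number of arrays limits the precision. Arrays of a group correlated at r = 0.973 to 0.993 over probe sets. The labels call the mice biological replicates and name no batch. Alternatives were no filter, a filter at the 75th percentile, the mean of all probe sets, other probe set types, a repeated quantile normalization, the replicate number as a block, eBayes with trend and robust set, the arrays of the groups compared alone, and leaving out each array. The 18S covariate was added after the data were seen.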

Additional observations from a re-analysis of the deposited data

Results flagged for a closer look

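Among 132 groups of 4 or 5 mice tested over the 33 carriers, 7 held a mouse beyond the critical value of Dixon's test for its gap to the nearest other one. Chance gives such a gap in about 1 in 20 independent groups. All carriers were read in the same 17 mice, so these groups are not independent. The count cannot show whether the flags arose by chance. At 3.0 Gy Slc25a11, the oxoglutarate carrier, read 5.71 in replicate 3, below the others at 6.24 to 6.35. The pyrimidine carrier Slc25a33 read 5.16 in replicate 1, above the others at 4.53 to 4.61. Slc25a34 read 5.72 in replicate 2, below the others at 5.86 to 5.89. The coenzyme A carrier Slc25a42 read 5.20 in replicate 3, below the others at 5.31 to 5.33. At 1.0 Gy the low mouse was replicate 3 for both genes concerned, with Slc25a36 at 6.11 (the others 6.65 to 6.69) and the glutamate carrier Slc25a22 at 6.30 (the others 6.56 to 6.61). At 0.5 Gy Slc25a10 read 6.14 in replicate 2, below the others at 6.35 to 6.38.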

How the results depend on the processing

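The 50 calls of carriers over the 6 comparisons were recomputed under the alternatives, which gave 1296 values. Of these, 1174 kept direction and call, 119 kept direction without the call and 3 reversed, all 3 with the 18S covariate: Slc25a51 between 1.0 Gy and control (0.0912), Slc25a11 between 3.0 and 0.5 Gy (0.0476) and Slc25a4 between 3.0 and 1.0 Gy (0.0459). The cause was not tested. With that covariate 29 of the 50 calls were lost. It left 0 carriers higher and 0 lower at 0.5 and 1.0 Gy, 3 higher and 13 lower at 3.0 Gy, 0 higher and 2 lower between 3.0 and 0.5 Gy, and 0 in either direction between 3.0 and 1.0 Gy. Over all 12696 genes it left 232 higher and 325 lower at 0.5 Gy, 285 and 321 at 1.0 Gy, and 2562 and 3715 at 3.0 Gy. Between 3.0 and 0.5 Gy 8 genes were higher and 87 lower, and between 3.0 and 1.0 Gy 0 were called. Repeated quantile normalization gave 3 lower at 0.5 Gy, 5 lower at 1.0 Gy, 7 higher at 3.0 Gy, 7 higher between 3.0 and 0.5 Gy and 12 higher between 3.0 and 1.0 Gy. The share of higher calls over all genes was then 54.1%, against 38.0% as deposited, between 3.0 and 0.5 Gy, and 58.7%, against 41.1%, between 3.0 and 1.0 Gy. Without the filter 5 were higher at 3.0 Gy and 8 between 3.0 and 1.0 Gy, with the 75th percentile 2 in the second comparison, and with only its arrays fitted 3. The labels state no pairing of mice by replicate number. Deviations of arrays with the same number correlated at -0.454 to 0.495, over 0.1 in 11 of 24 pairs. Arrays of different numbers were not compared in this way, so pairing was not tested. With the replicate block 2 carriers were lower at 0.5 Gy and 3 higher between 3.0 and 1.0 Gy, and 3 of the 50 calls were lost. The mean of all probe sets gave -0.50 for Slc25a3, -0.44 for Slc25a36 and -0.74 for Slc25a53 at 3.0 Gy, and 0.62 for Slc25a24 and -0.61 for Slc25a39 at 1.0 Gy, all still called.

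Leaving out 1 array gave 0 to 2 lower at 0.5 Gy (1 higher throughout), 1 to 2 higher and 1 to 3 lower at 1.0 Gy, 2 to 5 higher and 12 to 13 lower at 3.0 Gy, 2 to 4 higher and 8 to 12 lower between 3.0 and 0.5 Gy, 1 to 8 higher and 9 to 13 lower between 3.0 and 1.0 Gy, 0 between 1.0 and 0.5 Gy, and 15 to 21 at any dose by the F test. The 5 higher at 3.0 Gy came without control replicate 4 or 1.0 Gy replicate 3, the 4 higher between 3.0 and 0.5 Gy without 3.0 Gy replicate 2, and the 2 higher at 1.0 Gy without 3.0 Gy replicate 3. At 0.5 Gy 2 were lower without control replicate 2, and 1 without control replicate 5 or 0.5 Gy replicate 2. At 1.0 Gy 1 was lower without 1.0 Gy replicate 1 or 4. The table holds no background or detection values, so how far dim carriers stand above background is unknown.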
